A study of Carex littledalei with 18 samples.

Results

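This account describes the 200 assembled genes whose transcript level varied least across leaf libraries of a sedge moved into the cold. They were selected on a measured value, the SD of the log2 level over 17 libraries, so their small spread is a description and not a finding. In the deposited table of 214531 assembled genes, 10630 had a mean level of at least 10 and 10388 of those had no zero in any library. The 100 genes of highest mean were then left out, and the 200 of lowest SD were taken from the remaining 10288. They made up 1.94% of the genes open to choice. All 200 had reads in every library and all entered the test across times.

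Kobresia littledalei (Carex littledalei) is a sedge that grows in alpine grassland on the Tibetan plateau. Plants collected in Tibet were kept for 7 days in a greenhouse at 25 °C and then moved in pots to a room at -5 °C, with a pot of its own for each of 0, 0.5, 4, 12, 24 and 48 h, so that time and pot cannot be told apart. Every group was leaf tissue of these plants, with no other treatment and no named genotype, and the labels name no pot kept warm alongside the later times. Each time had 3 mRNA libraries, of 18895399 to 32345479 estimated counts, and the labels do not say whether these came from separate plants, so p-values measure only the spread between these samples, which may be technical.

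One library was deposited under both 0 h and 4 h: the columns of replicate 1 at these times held identical values in both tables, and its time is not known. It was used once in the choice of genes and left out of every time mean, which left 16 libraries, with 2 for each of these times and 3 for the others. The library 24 h replicate 2 also stood apart, with 27851 assembled genes that had at least 90% of their reads in it, holding 6.14% of its counts, and 0 of the 200 steady genes were among them. By the same measure 7033 genes were nearly private to 12 h replicate 2, making up 0.638% of its counts, and 3020 to 12 h replicate 1, making up 4.11%, again with 0 of the 200 among them. Choosing the 200 again without the doubled library kept 168 of them, and without 24 h replicate 2 kept 188, with median SDs of the original 200 of 0.244 and 0.2495 on the log2 scale. Without 12 h replicate 1 or 12 h replicate 2 it kept 176 or 163, with median SDs of 0.2474 and 0.2438.

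A reference gene is a transcript whose level is taken as constant, so that the measured amount of another transcript can be divided by it. Reverse-transcription PCR needs such genes because samples differ in RNA input and in the yield of cDNA, and a transcript assumed to be constant may itself respond to the treatment. A good reference is steady both between conditions and between samples of one condition, and its level is not far from that of the transcripts it is compared with. Housekeeping genes of ribosomes, the cytoskeleton and central metabolism are the usual choices in plants. The identifiers here come from a Trinity assembly, in which reads are joined into transcripts without a genome, and the files pair none of them with a gene name. No role is therefore given for any gene.

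The level of the steady genes was bounded by the rule, which asked for a mean of at least 10 and left out the 100 highest. Their mean deposited value, an expression level scaled for gene length and between libraries by TMM (trimmed mean of M-values), had a median of 18.9 and ran from 10.01 to 236. In the 10288 genes open to choice the median was 22.0. Only 19 of the 200 (9.50%) had a mean of 50 or more, against 21.8% of the open genes. With the open genes split by level into 10 groups of equal size, there were 4 steady genes in the highest group, 10 in the group below it, and 16 to 34 in each of the other 8. The 200 themselves, split by level into 3 groups of 66 or 67, had means of 10.01 to 14.4, 14.6 to 24.6 and 24.7 to 236, and their median SD was 0.244, 0.249 and 0.254.

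The SD of the log2 level ran from 0.164 to 0.270, with a median of 0.249, where the open genes had a median of 0.609. On the linear scale the coefficient of variation was 11.9% to 20.2%. The highest library stood at 1.85 times the lowest in the median steady gene, and at 2.29 times in the widest. In the median open gene that ratio was 4.56. The ratio stayed under 2 in 167 of the 200. The choice ended in a dense region: the last genes taken had SDs of 0.26958 (TRINITY_DN210535_c2_g3) and 0.26972 (TRINITY_DN205201_c3_g1), and the first ones not taken had 0.26981 (TRINITY_DN208898_c0_g4) and 0.26982 (TRINITY_DN206002_c4_g1). Membership near this edge is therefore set by differences in the fourth decimal.

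**Figure D1:**
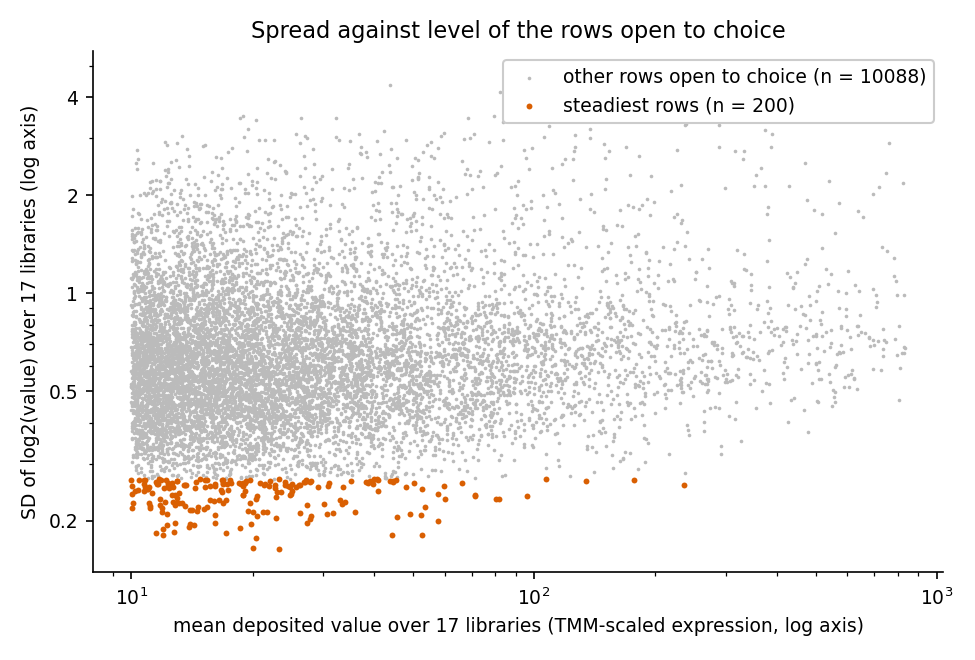
Each point is an assembled gene, with its mean deposited value on the x axis and the SD of its log2 value over 17 libraries on the y axis, both on log axes; orange points are the 200 steady genes and grey points the others of the 10288 open to choice. The steady genes lie below an SD of 0.270 and thin out above a mean of 100.

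The gene of lowest SD was TRINITY_DN195028_c2_g1, with a mean of 23.3 and an SD of 0.164. Its level was 25.6 and 24.2 in the 0 h libraries, 21.3, 22.5 and 21.7 at 0.5 h, 20.4 and 30.6 at 4 h, 24.3, 26.6 and 21.5 at 12 h, 19.97, 23.8 and 19.7 at 24 h, 24.0, 21.8 and 22.4 at 48 h, and 25.2 in the library of unknown time. The highest value was that of 4 h replicate 3, while 4 h replicate 2 was among the lowest. The 0 h libraries lay above those of 0.5, 24 and 48 h, and the other pairs of times overlapped. Time means ran from 21.2 ± 2.32 (SD, n = 3) at 24 h to 25.5 ± 7.21 (SD, n = 2) at 4 h. It held 83.9% of the summed level of its component, the group of assembled genes that the assembler linked by shared sequence, and the component sum had an SD of 0.207.

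TRINITY_DN208088_c1_g2 was the steadiest gene of the highest of the 3 groups by level, with a mean of 44.5 and an SD of 0.181. Its level was 49.0 and 47.5 at 0 h, 40.3, 43.8 and 45.1 at 0.5 h, 48.8 and 53.3 at 4 h, 44.1, 48.5 and 42.4 at 12 h, 45.4, 41.0 and 35.3 at 24 h, 42.6, 40.6 and 54.3 at 48 h, and 34.3 in the library of unknown time. The lowest value was that last one and the highest was 48 h replicate 3. The 4 h libraries lay above those of 0.5, 12 and 24 h and overlapped those of 48 h. With a mean of 7133 reads per library it was the most deeply read of the 10 steadiest, and counting error made up 0.921% of its variance.

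TRINITY_DN196960_c3_g1 was the steadiest of the lowest group by level, with a mean of 12.0 and an SD of 0.182. Its level was 11.3 and 13.3 at 0 h, 11.5, 10.8 and 11.3 at 0.5 h, 9.83 and 13.9 at 4 h, 11.6, 9.97 and 13.2 at 12 h, 13.2, 11.4 and 15.2 at 24 h, 10.3, 11 and 13.7 at 48 h, and 11.8 in the library of unknown time. All 6 times overlapped. It belonged to a component of 10 assembled genes and held 56.7% of that component's level.

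TRINITY_DN202351_c1_g4 and TRINITY_DN213089_c1_g1 had means close to 20 and SDs of 0.165 and 0.177. The first was 17.2 to 24.0 in the 16 libraries of known time, with 25.9 in the library of unknown time, and its time means differed by at most 0.16 on the log2 scale. The second was 16.95 to 24.86 over the 17 libraries, and its highest library stood at 1.47 times its lowest, the only ratio under 1.5 among all 10288 open genes. It was read less deeply, with a mean of 289 reads per library, and counting error made up 24.4% of its small variance.

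The remaining 5 of the 10 steadiest were TRINITY_DN206170_c1_g8 (mean 52.6), TRINITY_DN203841_c0_g2 (11.5), TRINITY_DN210227_c2_g1 (17.2), TRINITY_DN211103_c1_g4 (12.8) and TRINITY_DN209397_c0_g1 (12.0). Their SDs lay between 0.181 and 0.189. In TRINITY_DN206170_c1_g8, TRINITY_DN210227_c2_g1 and TRINITY_DN211103_c1_g4 the highest value was that of 48 h replicate 3, at 71.2, 23.5 and 17.01. The share of the component that each carried differed widely, from 22.7% in TRINITY_DN206170_c1_g8 to 87.7% in TRINITY_DN209397_c0_g1. The component sums of these genes had SDs of 0.168 and 0.1885, and that of TRINITY_DN203841_c0_g2, which carried 25.3% of its component, had 0.297. The component sum would matter for an assay that reads all assembled genes of a component alike. Without sequences it is not known whether an assay could tell them apart.

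**Figure D2:**
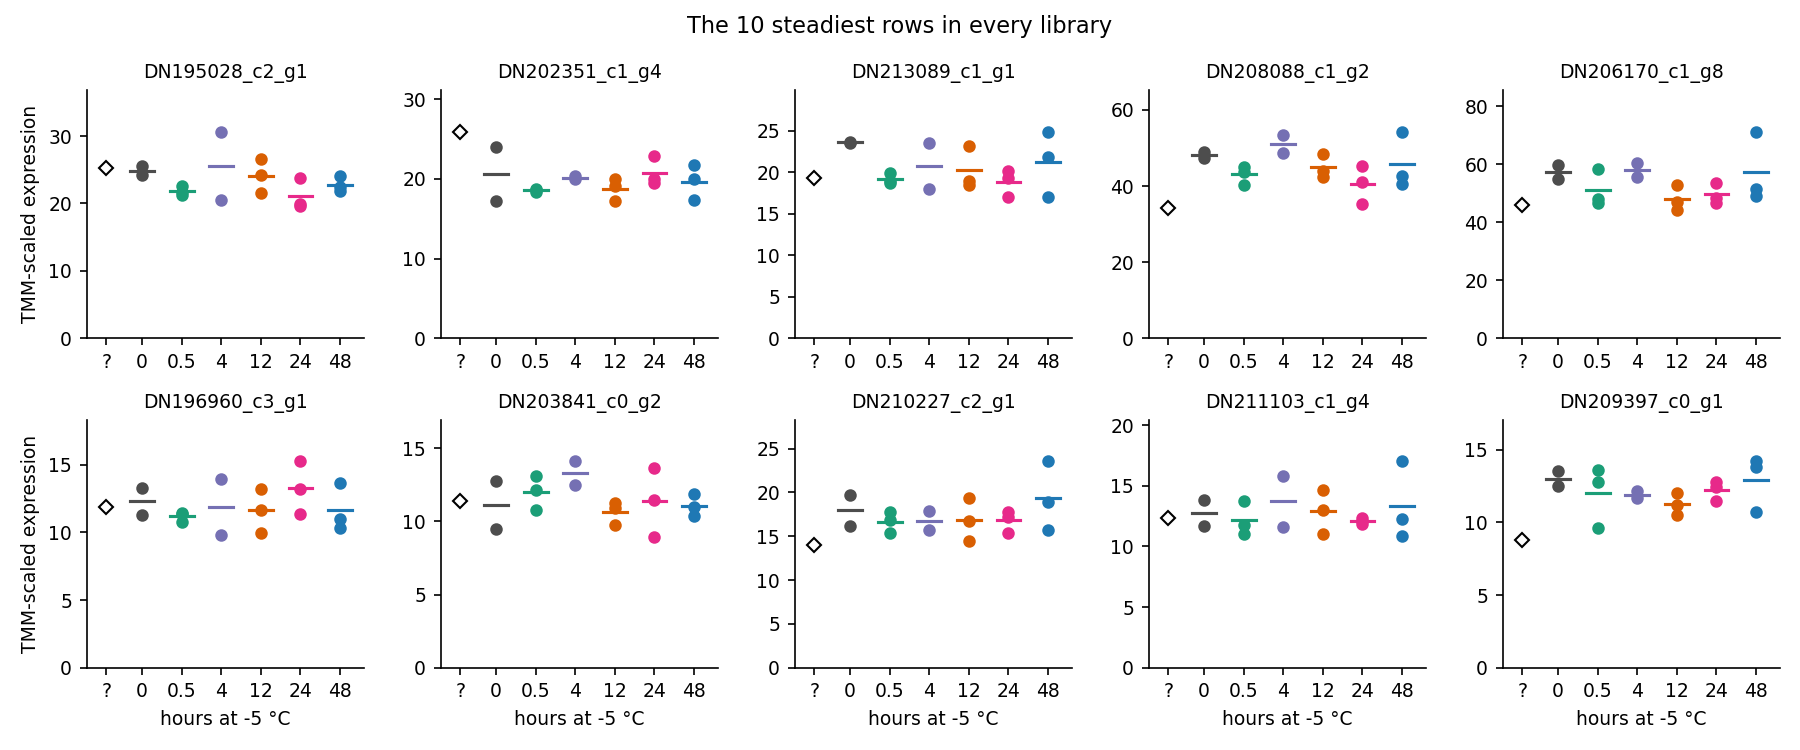
Each panel shows one of the 10 steadiest genes, with hours at -5 °C on the x axis and the deposited level on the y axis, which starts at 0; points are libraries, bars are time means and the open diamond at "?" is the library whose time is not known. Values of every gene stay within a 1.68-fold range, and no panel shows a steady rise or fall across the times.

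The gene of highest level was TRINITY_DN202957_c4_g2, with a mean of 236 and an SD of 0.258. Its level was 203 and 236 at 0 h, 157, 195 and 235 at 0.5 h, 241 and 235 at 4 h, 277, 303 and 233 at 12 h, 271, 279 and 206 at 24 h, 237, 173 and 287 at 48 h, and 248 in the library of unknown time. Values at 0.5 h were the lowest on average (196 ± 39.3, SD, n = 3) and those at 12 h the highest (271 ± 35.4, SD, n = 3), and the ranges of these times overlapped. At the other end, TRINITY_DN199937_c0_g4 had a mean of 10.01 and ran from 6.79 in 0.5 h replicate 1 to 14.4 in 48 h replicate 3.

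Spread between times was compared with spread within times. The pooled SD within a time had a median of 0.243 over the 200 genes and the SD of the 6 time means a median of 0.147. Means of 2 or 3 libraries vary less than single libraries, so the lower second value does not show that times differed less than libraries. Differences between times held a median of 33.6% of the variation of a steady gene over the 16 libraries of known time. With 16 libraries a gene with no difference between times gives an average of 33.3%, because time means take up that share of the degrees of freedom. That average is lower with more libraries and higher with fewer. The open genes had a median of 33.5%, and a pooled SD within a time of 0.584. With the library of unknown time placed at 0 h or at 4 h the median was 31.7% or 29.55%, and without 24 h replicate 2 it was 36.05%. These rest on other numbers of libraries, so 33.3% is not their point of comparison. On CPM, the estimated counts divided by library size and not by length, with TMM factors it was 25.16%.

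TRINITY_DN212384_c1_g4 had the largest share of variation between times, 82.6%, with levels of 9.76 and 9.29 at 0 h, 10.2, 9.78 and 8.93 at 0.5 h, 11.7 and 9.87 at 4 h, 10.9, 11.7 and 10.7 at 12 h, 11.4, 10.3 and 9.39 at 24 h, 13.1, 14.1 and 15.7 at 48 h, and 11.7 in the library of unknown time. All 3 libraries at 48 h lay above every other library, although the total SD was only 0.222. TRINITY_DN199429_c0_g1 had the smallest share, 3.64%, with time means of 15.5 to 18.02. Its level was 13.35 and 22.7 at 0 h, 16.2, 21.3 and 13.2 at 0.5 h, 14.7 and 16.3 at 4 h, 14.9, 15.4 and 18.9 at 12 h, 19.9, 16.7 and 14.8 at 24 h, 13.5, 15.6 and 21.1 at 48 h, and 16.4 in the library of unknown time. Here the spread lay between leaf samples of one time, and all 6 times overlapped.

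The difference between the highest and the lowest time mean of a steady gene had a median of 0.39 on the log2 scale and reached 0.71. It was under 0.5 in 171 of the 200 genes. Among the open genes the median was 0.93. Limma's moderated 95% interval of this difference came from a fit across all 10288 open genes, which draws the SD of a steady gene toward that of the open genes: the median SD within a time was 0.243 before and 0.350 after this step. The times compared were picked in each gene as the highest and the lowest, and the genes were chosen for low spread in these libraries, so the intervals are a description and nothing is read from their counts. The upper bound had a median of 1.04 and reached 1.38, against a median of 2.04 in the open genes. It was below 1, a 2-fold difference, in 71 of the 200 and in 0.943% of the open genes. For TRINITY_DN195028_c2_g1 the difference between 4 and 24 h was 0.25 with an interval of -0.35 to 0.85, and for TRINITY_DN202351_c1_g4 the difference between 24 and 0.5 h was 0.16 with an interval of -0.37 to 0.68, the lowest upper bound of all 200.

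The interval lay wholly above 0 in 7 of the 200, where 37.5% of the open genes had such an interval. These genes, named after their values were seen, were TRINITY_DN211941_c2_g2, TRINITY_DN207779_c0_g3, TRINITY_DN207711_c3_g6, TRINITY_DN211902_c2_g6, TRINITY_DN205059_c1_g2, TRINITY_DN210860_c0_g3 and TRINITY_DN202774_c0_g2. In TRINITY_DN211941_c2_g2 the mean at 48 h was 0.70 above that at 0 h on the log2 scale, with an interval of 0.11 to 1.29. In TRINITY_DN207779_c0_g3 the mean at 48 h was 0.62 above that at 0.5 h, with an interval of 0.06 to 1.18. The largest difference was in TRINITY_DN207711_c3_g6, 0.71 between 4 and 0.5 h, with an interval of 0.03 to 1.38.

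In edgeR's quasi-likelihood test of any difference between the 6 times, fitted to the estimated counts of 16 libraries, 0 of the 200 were called at an adjusted p under 0.05, where 0.717% of 68030 tested genes were called. At an unadjusted p under 0.05 the count was also 0, against 12.2% of the tested genes, and the lowest adjusted p of a steady gene was 0.726. Because the genes were chosen for low spread in these same libraries, nothing is read from these counts. Limma on log2(value + 1) called 0 of the 200 and 1.39% of the tested genes. DESeq2's likelihood ratio test called 1 of the 200, against 5.76% of the genes to which it gave an adjusted p.

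That gene, TRINITY_DN202774_c0_g2, is named because it was called, after its values were seen. Its level was 21.6 and 31.5 at 0 h, 35.0, 33.7 and 24.8 at 0.5 h, 25.0 and 27.0 at 4 h, 21.9, 21.1 and 23.3 at 12 h, 18.2, 22.7 and 21.5 at 24 h, 26.5, 26.3 and 26.5 at 48 h, and 20.3 in the library of unknown time. The 0.5 h libraries all lay above those of 12 and 24 h, and those of 48 h did so too. The DESeq2 adjusted p was 0.0408 and the edgeR one 0.726.

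In 11 of the 200 genes (5.50%) all libraries of one time lay above or below all libraries of the other times, against 7.69% of the open genes, and this too was fixed in part by the choice. In 8 of these the 4 h or the 48 h libraries were the high ones. The 4 h libraries were in 2.0% of the 200 and 2.22% of the open genes. Those of 48 h were in 2.0% of the 200 and 1.23% of the open genes. With 2 libraries of known time, 0 h and 4 h can lie apart more easily than the other times. The highest time mean fell at 4 or 48 h in 123 of the 200 (61.5%) and in 46.5% of the open genes.

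The libraries with higher values were shared by many steady genes. Each value was expressed as a log2 deviation from its gene's mean over the 17 libraries, and the median deviation of the 200 genes was 0.21 in 48 h replicate 3 and 0.13 in 4 h replicate 3. It was -0.10 in 0.5 h replicate 1 and within 0.09 of 0 in each of the other libraries. The open genes had medians of 0.20 in 48 h replicate 3 and 0.13 in 4 h replicate 3, so the medians of both sets were above 0 there. In all, 45 of the 200 had their highest value in 48 h replicate 3 (22.5%; 9.94% of open genes), and 30 had their lowest in 0.5 h replicate 1 (15%; 6.82% of open genes). Among the open genes the lowest value fell most often in the library of unknown time, in 14.4% of them, and 22 of the 200 had theirs there. Removing each library's median offset lowered the median SD from 0.249 to 0.233. Without 48 h replicate 3 the choice kept 158 of the 200, and the median SD of the 200 was 0.2397. The part of these offsets in the high time means at 4 and 48 h was not tested.

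The correlation of log2 levels between pairs of steady genes had a median of 0.09 over the 17 libraries, with 90% of pairs between -0.37 and 0.53. In 2000 open genes drawn with a fixed seed the median was 0.03. These values share the libraries and their scaling.

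**Figure D3:**
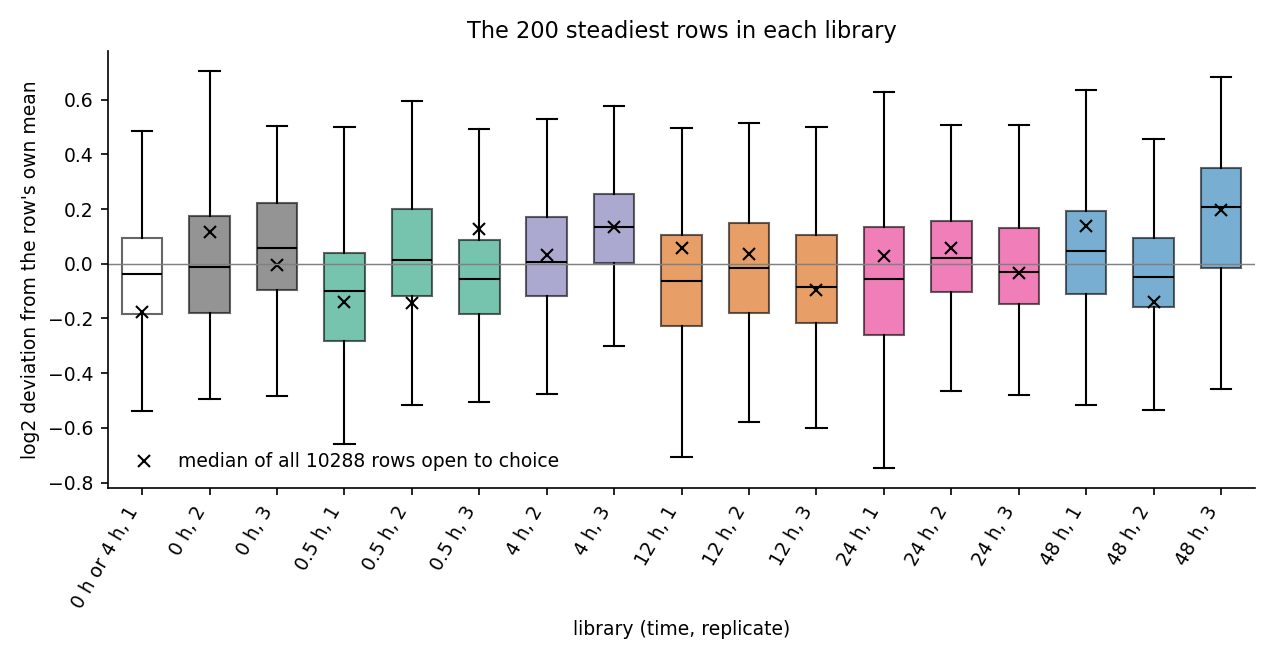
Boxes show, for each library on the x axis, the log2 deviation of the 200 steady genes from their own means (box, quartiles; line, median; whiskers, 1.5 times the interquartile range), and crosses show the median of all 10288 open genes. The box of 48 h replicate 3 lies highest, with a median of 0.21, and its cross lies at 0.20.

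The steady genes had a high relative length. The number of estimated counts per unit of deposited level, taken relative to the library's median over the open genes, serves as a relative transcript length, because the deposited level is scaled for length and the counts are not. Its median was 2.35 in the steady genes and 1.00 in the open genes. Of the 200, 170 were longer than the median open gene, and 105 (52.5%) were among the longest 20.004% of the open genes. With the open genes split by length into 10 groups of equal size, there were 2 steady genes in the shortest group and 61 in the longest.

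Length goes with depth of reading at a given level. The steady genes had a median of 1113 reads per library against 650 in the open genes, and the expected counting error was a median of 0.045 on the log2 scale against 0.065. Counting error alone made up a median of 3.69% of the variance of a steady gene, and 1.1996% of that of an open gene. These are medians: the 90th percentile of the share was 11.4% in the steady genes and 5.41% in the open genes, and its maximum was 53.4% in both. The median SD of open genes fell along length, from 0.742 in the shortest of those groups to 0.493 in the longest. Members were chosen on spread, so these differences carry no test.

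Relative length itself was steady too. It is an average over the isoforms of an assembled gene in each library, so a shift between long and short isoforms would change it. Its SD over libraries was a median of 0.045 on the log2 scale in the steady genes and 0.083 in the open genes, and it exceeded 0.1 in 21.5% of the steady genes against 44.4% of the open ones. Among the 10 steadiest, TRINITY_DN209397_c0_g1 and TRINITY_DN203841_c0_g2 had the largest values, 0.166 and 0.160, and TRINITY_DN202351_c1_g4 the smallest, 0.022. The deposited level is made from counts and this length together, so length and level are not independent measures.

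**Figure D4:**
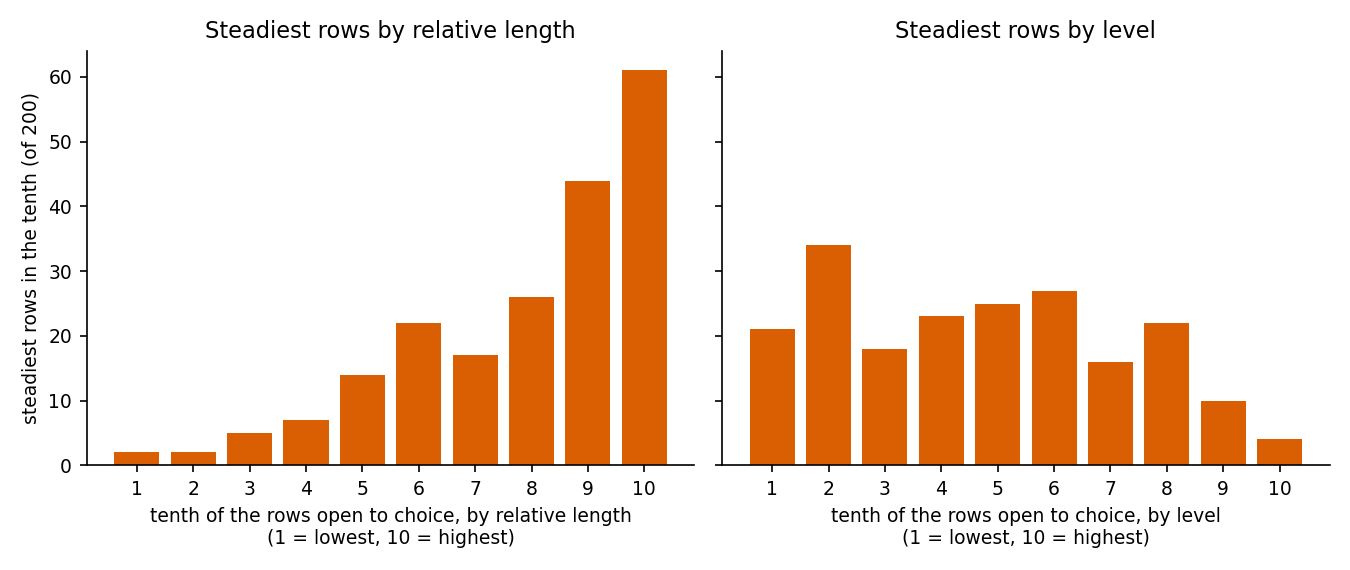
Bars give the number of the 200 steady genes in each of 10 equal groups of the 10288 open genes, formed by relative length in the left panel and by mean level in the right panel. The bar of the longest group stands at 61 and that of the highest level at 4.

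The 200 genes lay in 192 components of the assembly, of which 8 held 2 steady genes each. The components held 835 further assembled genes, 730 with a mean level under 10. Of the 105 further genes that were open to choice, the median SD was 0.393, with a range of 0.2699 to 1.504. An open gene that was not chosen has to lie above the limit that chose the 200. A steady gene carried a median of 58.2% of its component's level. Summed over the component, the median SD was 0.248, and the sum met the same limit in 144 of the 200 cases (72.0%; 3.72% of open genes). A steady gene is part of its own component sum, so the low spread it was chosen for carries into that sum. Reads shared between the assembled genes of a component may have been divided among them in the authors' counting.

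How far the steadiness carried over to libraries not used in the choice was examined by choosing the 200 again without each library in turn. Between 155 and 188 of the original genes were chosen again, 130 were chosen in all 17 rounds, and each of the 10 steadiest was chosen in all of them. For these 10 this was nearly fixed in advance. With 1 library left out their SDs reached at most 0.195, where the limit over all 17 libraries was 0.270. In the library left out, the newly chosen genes deviated from their mean elsewhere by a median of 0.16 to 0.36 on the log2 scale. All open genes deviated by 0.27 to 0.58, and the newly chosen genes were nearer in 17 of 17 rounds. The rounds share most of their libraries and genes, so they are not independent trials. Other libraries of the same time also stayed in the choice. Between 98.0% and 100% of the chosen genes stayed within 2-fold there, against 75.2% to 94.0% of open genes. The largest deviation of the chosen genes, 0.36, was in 48 h replicate 3, where their median was 0.34 above.

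Leaving out a whole time gave the same order. Genes chosen without the libraries of one time shared 130 to 156 with the original 200, the fewest without 48 h. In the mean of the time left out they deviated by a median of 0.12 at 24 h to 0.21 at 48 h, against 0.23 to 0.33 in open genes, and were nearer in 6 of 6 rounds. These rounds too share most of their libraries and are not independent. When 0 h or 4 h was left out, the library of unknown time was kept, and it may belong to the time left out.

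**Figure D5:**
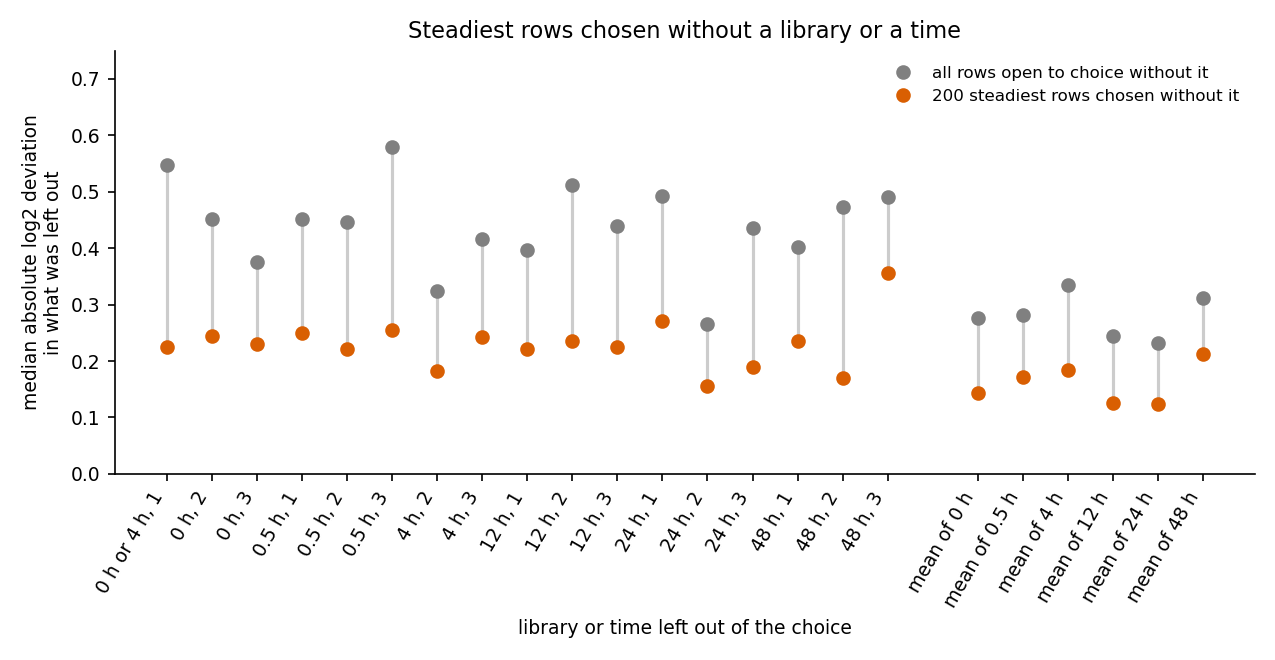
The y axis is the median absolute log2 deviation, in the library or time mean left out, from the mean of the libraries used; orange points are the 200 genes chosen without it and grey points all genes then open to choice. The orange point lies below the grey one in all 17 library rounds and all 6 time rounds.

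Averaging genes is the usual way to build a reference panel. The mean log2 level of the 10 steadiest genes had an SD of 0.085 over the 17 libraries, with the highest library at 1.23 times the lowest, compared with 0.164 for the single steadiest gene. For panels of 2, 3 and 5 the SD was 0.125, 0.123 and 0.105, and with 50 and 200 genes it was 0.077 and 0.073. Within the 10, the SD of the log2 ratio of a gene to each of the other 9 averaged from 0.212 for TRINITY_DN208088_c1_g2 to 0.258 for TRINITY_DN203841_c0_g2. These figures describe the libraries that chose the genes. When the 10 steadiest were chosen without a library and then read in it, their mean deviated by -0.36 to 0.39, with a median size of 0.14, and stayed within 0.1 in 6 of 17 libraries. The extremes were 0.5 h replicate 1 and 48 h replicate 3.

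Which genes were steadiest also depended on how libraries were scaled. Under CPM with TMM factors, 114 of the 200 were again among the steadiest of the 10288 open genes, with RLE factors 102, and with library size alone 31. The median SD of the same 200 genes was 0.263, 0.266 and 0.332 under these scalings, and the share of open genes with an SD below that median was 1.62%, 1.91% and 7.26%. Of the 10 steadiest, 9 were kept with TMM and 9 with RLE, and 3 with library size alone, namely TRINITY_DN195028_c2_g1, TRINITY_DN208088_c1_g2 and TRINITY_DN209397_c0_g1. The TMM factors of the libraries ran from 0.660 to 1.35.

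Holding the 10288 open genes of the deposited table fixed was an alternative chosen after seeing the data. With it, 7 of the 200 were chosen under the deposited table and all 3 CPM scalings. They were TRINITY_DN195028_c2_g1 and TRINITY_DN208088_c1_g2, both among the 10 steadiest, and TRINITY_DN203330_c1_g4, TRINITY_DN208751_c0_g1, TRINITY_DN207371_c3_g1, TRINITY_DN205765_c3_g4 and TRINITY_DN205059_c1_g2, named after their values were seen. The last of these is also among the 7 whose interval lay above 0. It was chosen in 9 of the 17 rounds that left out 1 library, and TRINITY_DN205765_c3_g4 in 12. The others of the 7 chosen under all scalings were chosen in all 17 rounds. The SDs of the first pair were 0.164 and 0.181 on the deposited table, 0.189 and 0.252 as CPM with TMM factors, 0.208 and 0.263 with RLE factors, and 0.263 and 0.230 with library size alone. By contrast TRINITY_DN206170_c1_g8 had 0.154 with TMM factors and 0.302 with library size alone, while TRINITY_DN205201_c3_g1, the last gene taken, had 0.312 and 0.162. The deposited scaling differed from CPM with TMM factors by -0.21 to 0.11 on the log2 scale between libraries, with the lowest values in 0.5 h replicate 3 and 24 h replicate 1.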

How the data were processed

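RNA-seq of leaf was analysed from 2 tables. The authors deposited estimated counts per assembled gene, not scaled between libraries, and a table of signal per assembled gene, an expression level scaled for length and by TMM factors. The labels leave its base unit, TPM or FPKM, unnamed. The submitters' processing notes list Trimmomatic 0.36 and FastQC. For the aligner, the counter and the assembly, nothing is given in the sources used here. Of the columns, 0 matched no sample.

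The members, lists and tests were chosen with earlier results of these data known. The named genes were the 10 of lowest SD, those on either side of the limit, those of highest and lowest mean, the one of lowest SD in each of 3 equal groups by mean, and those with the largest and smallest share of variation between times. Counts were rounded and tested for any difference between times with edgeR 4.0.16 (R 4.3.3; TMM factors, filterByExpr, quasi-likelihood F test, Benjamini-Hochberg adjustment over all genes tested). Both copies of the doubled library were left out of this fit. The alternatives were limma 3.58.1 on log2(value + 1), DESeq2 1.42.0, other scalings, other filters and leaving out each library. Moderated 95% intervals came from limma on log2 values. The scripts were tested on simulated data.

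Time means and SDs used 16 libraries and the choice used 17. Counting error was taken from the number of reads, and covers counting only. Gene names, roles and sequences are not given, since the files used here do not pair the identifiers with them.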

Additional observations from a re-analysis of the deposited data

How the results depend on the processing

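Of the 200 genes, 87, 73 and 23 were kept when the choice was made on CPM with TMM factors, RLE factors or library size alone, and 114, 102 and 31 when the genes open to choice were held fixed, an alternative chosen after seeing the data. The median absolute deviation kept 79, and leaving out the 48 h libraries kept 130; leaving out 1 library kept 155 to 188. A mean minimum of 20 kept 90, which are all of the 200 that could be kept, since 110 had a mean under 20. Under those 3 scalings the median SD was 0.2634, 0.2663 and 0.3315 (0.2493 on the deposited table), and the median share of variation between times 25.16%, 26.07% and 20.82% (33.65%). Leaving out 1 library gave 0.2397 to 0.2502 for the median SD, 33.59% to 37.89% for that share and 0.3819 to 0.4311 for the median largest difference of time means. The share that a gene with no difference between times gives on average is itself higher with 1 library fewer. The cause of the shifts with scaling was not tested.

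In edgeR 0 of the 200 were called in each setting run, and DESeq2 called 1. Genes called among all tested were 488, against 15362 with no filter, 770 with the doubled library at 0 h alone, 948 with limma and 3502 with DESeq2, and 133 to 757 when 1 library was left out. With the replicate number as a block (replicate block) 228 genes and 0 of the 200 were called. Between same-numbered libraries of different times, correlations of deviations from the time means ran from -0.335 to 0.369, with a median of -0.0487. Between other-numbered ones they ran from -0.439 to 0.323, with a median of 0.0248. Whether the number stands for a shared batch was not tested. Of 336 recomputed SDs of the 16 named steady genes, 302 moved by less than the spread used as the limit and 34 by more. Most of the 336 came from leaving out 1 library, and the limit was computed from those same SDs. They could hardly exceed it, so nothing is read from the 302. TRINITY_DN202351_c1_g4 moved past it under all 3 CPM scalings, from 0.165 to 0.213, 0.229 and 0.276. TRINITY_DN206170_c1_g8 did so only with library size alone, from 0.181 to 0.302. The SD of 2 or 3 libraries per time limits what can be said of any single gene.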

Other observations

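The limits of the rule left out genes of similar spread at low level and 0 at high level. Among the 100 genes of highest mean, 0 had an SD within the limit of 0.270 that chose the 200, their median SD was 1.00 and their lowest 0.448. Among 6613 genes with a mean of 5 to under 10 and no zero, 77 were within it, and the lowest SD was 0.162. Among 16223 genes with a mean of 1 to under 5 and no zero, 47 were within it, with a lowest SD of 0.167.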
